A study of Mus musculus with 9 samples.

Results

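The genes described here are 10 members of the major histocompatibility complex (MHC) class I and class II antigen presentation pathways, chosen by gene symbol, out of 26602 genes with at least 1 count. They are B2m, H2-K1 and H2-D1 for class I molecules, Tap1, Tap2 and Tapbp for loading of class I molecules with peptide, and H2-Aa, H2-Ab1, H2-Eb1 and Cd74 for class II molecules. Midbrain tissue containing the substantia nigra was sequenced from 4 wild-type DJ-1+/+ mice (labelled WT) and 5 DJ-1-/- mice (labelled DJ-1 KO), all between 3 and 4 months of age and untreated. The DJ-1-/- mice are homozygous for a targeted allele of Park7, the gene encoding DJ-1, that is carried by every cell and not restricted to neurons or immune cells. After 7 generations of backcrossing to C57BL/6, mice of both genotypes were bred from heterozygous parents. The libraries were QuantSeq 3′ libraries, which sequence 1 fragment beside the poly(A) tail of each transcript, with unique molecular identifiers (UMIs), so that copies made by PCR are counted once.

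Class I molecules are found on nearly all nucleated cells and show short peptides from the cell's own proteins to CD8 T cells. Peptides are cut by the proteasome, pumped into the endoplasmic reticulum by the TAP transporter, and loaded with the help of tapasin. Class II molecules are carried mainly by professional antigen presenting cells, show peptides from ingested proteins to CD4 T cells, and in the healthy brain are scarce on resting microglia and more frequent on macrophages and dendritic cells of the borders. Both pathways are induced by interferon gamma.

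The libraries held 841974, 879901, 859549 and 886085 counts in DJ-1+/+ replicates 1 to 4, and 999042, 1098125, 969376, 967751 and 1026201 counts in DJ-1-/- replicates 1 to 5. Depth therefore did not overlap between the genotypes, and values are given as counts per 1000000 of the library total (cpm). A floor of 3 counts, taken as the smallest detectable level, was between 2.73 and 3.56 cpm, which covers counting error only. The most abundant gene of a library had between 1040 and 1359 counts, and Mbp, a myelin gene, had between 396 and 588, so the range of counts was narrow at the top. Whether counts follow the number of molecules for abundant genes was not tested.

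Park7 had 132, 105, 113 and 118 counts in the DJ-1+/+ libraries and 23, 29, 14, 19 and 19 counts in the DJ-1-/- libraries, so every library followed its label. Xist, the RNA that coats the inactive X, had 0, 160, 146 and 1 counts in DJ-1+/+ and 159, 193, 148, 165 and 2 counts in DJ-1-/- libraries. The Y-linked gene Ddx3y had 121, 113 and 152 counts in the libraries low in Xist and at most 4 in the others. Replicates 1 and 4 of DJ-1+/+ together with replicate 5 of DJ-1-/- were the 3 libraries low in Xist, so 2 of 4 and 1 of 5 mice.

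The 10 genes spanned a wide range of levels. Because 1 fragment is read per transcript, the counts do not grow with transcript length, and levels are ordered between genes on the cpm scale as counted. Reads of overlapping neighbours and of shared sequence, described below, were not separated in this order. Over the 9 libraries mean levels were 177 cpm for B2m, 97.0 for H2-D1, 89.6 for Tapbp, 73.2 for H2-K1, 20.5 for Tap2, 18.4 for H2-Ab1, 17.3 for H2-Aa, 11.1 for H2-Eb1, 10.5 for Tap1 and 4.86 for Cd74. B2m was above 96.5% of the 18127 genes tested, and Cd74 above 20.01%. The per-library values of B2m lay above all values of H2-D1, and those of H2-K1 above all values of Tap2, whereas other neighbours in this order overlapped in their ranges. Cd74, which encodes the chain that escorts new class II molecules, had the lowest cpm of the 10. Whether counts follow the number of molecules equally well in each gene was not tested.

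B2m (ENSMUSG00000060802) lies on chromosome 2 from 122147686 to 122153083, and 8 of the 10 genes lie within the MHC on chromosome 17 between 33915899 (the start of Tapbp) and 35267499 (the end of H2-D1). Cd74 is on chromosome 18 from 60803848 to 60812652. Positions are those of GENCODE M21 on GRCm38. Tap1 (ENSMUSG00000037321, chromosome 17 from 34187553 to 34197225) overlaps Psmb9 on the other strand. Tap2 overlaps Gm20496 and Gm15821, H2-Eb1 overlaps Gm20513 and B2m overlaps Patl2, all on the other strand. Tapbp overlaps Zbtb22 on its own strand and Gm19412 on the other, and Cd74 overlaps Mir5107 on its own strand. Psmb9 and Tap1 lie head to head, whereas fragments were read beside the poly(A) tail. Where each overlap lies relative to the reads was not checked. Whether strand was used in counting is not given in the sources used here. Reads of these neighbours were therefore not separated from those of the genes themselves. Class I genes are close copies of each other, and in the last 300 transcript bases H2-K1 shared 2 of 251 windows of 50 bases with H2-D1. H2-D1 shared 43 of 251 such windows with other genes, and none of the 10 genes shared a window of 75 bases.

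B2m, the light chain of all class I molecules, had 201, 186, 170 and 143 cpm in DJ-1+/+ and 200.2, 184, 192, 167 and 145 cpm in DJ-1-/- mice. Both genotypes covered the same range, and no DJ-1-/- mouse was above the highest DJ-1+/+ mouse. Means were 175 ± 24.6 cpm (SD, n = 4) and 178 ± 21.8 cpm (SD, n = 5). In DJ-1-/- over DJ-1+/+ mice the log2 fold change of B2m was 0.02 (standard error 0.10), with a 95% interval from −0.20 to 0.24.

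H2-K1, the heavy chain of the class I molecule K, had 58.2, 80.7, 66.3 and 76.7 cpm in DJ-1+/+ and 86.1, 79.2, 82.5, 63.0 and 66.3 cpm in DJ-1-/- mice. The genotypes overlapped, with 2 of 5 DJ-1-/- mice above the highest DJ-1+/+ mouse. The log2 fold change was 0.10 (standard error 0.13), with a 95% interval from −0.18 to 0.37. H2-D1, the heavy chain of the class I molecule D, had 107, 103, 100.1 and 93.7 cpm in DJ-1+/+ and 106, 107, 89.7, 87.8 and 78.0 cpm in DJ-1-/- mice. DJ-1-/- replicates 3, 4 and 5 lay below all DJ-1+/+ mice, and the other 2 lay within or just above their range. For H2-D1 the log2 fold change was −0.10 (standard error 0.10), with a 95% interval from −0.32 to 0.11. For none of the class I genes was a genotype difference in mean cpm detected (exact permutation tests, two-sided p = 0.905 for B2m, 0.460 for H2-K1 and 0.365 for H2-D1).

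**Figure D1:**
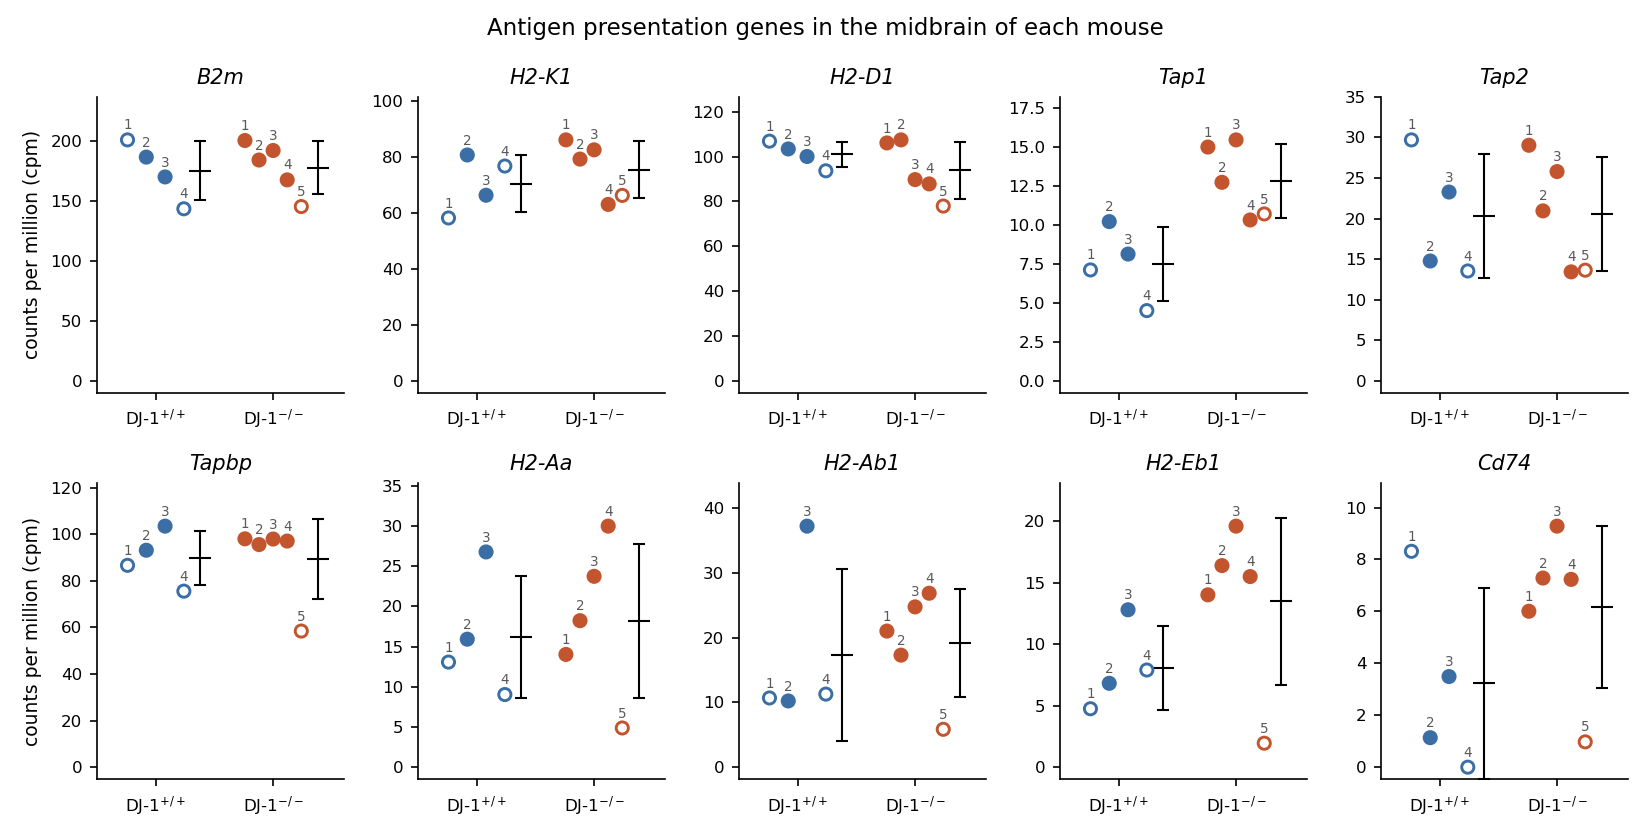
Level of each of the 10 genes in cpm (y axis) in each DJ-1+/+ and DJ-1-/- library; numbers are replicates, open circles are the libraries low in Xist, and bars are the mean ± SD of 4 and 5 mice. Tap1 is the gene whose values did not overlap, and DJ-1-/- replicate 5 was the lowest library for H2-D1, Tapbp, H2-Aa, H2-Ab1 and H2-Eb1.

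Among the genes of peptide loading, Tap1, which encodes one subunit of the peptide transporter, separated the genotypes. It had 6, 9, 7 and 4 counts, or 7.13, 10.2, 8.14 and 4.51 cpm, in DJ-1+/+ mice. In DJ-1-/- mice it had 15, 14, 15, 10 and 11 counts, or 15.0, 12.7, 15.5, 10.3 and 10.7 cpm. Every DJ-1-/- mouse was above every DJ-1+/+ mouse, though DJ-1-/- replicate 4 and DJ-1+/+ replicate 2 lay next to each other. Mean levels were 7.50 ± 2.37 cpm (SD, n = 4) against 12.9 ± 2.37 cpm (SD, n = 5). By exact permutation this difference had a two-sided p of 0.0159, below which 4 against 5 mice cannot go, and 666 genes, 3.67% of those tested, had a p under 0.05 in that test. The log2 fold change was 0.77 (standard error 0.32, 95% interval from 0.08 to 1.45), with an unadjusted p of 0.0304 in the quasi-likelihood test of edgeR and a Benjamini-Hochberg adjusted p of 0.9999 over all genes. The cpm of 226 genes did not overlap between the genotypes, which is 1.25% of all genes tested, and 1 of the 10 genes is therefore read against that share. Tap1 rests on few counts in each mouse, and its unadjusted edgeR or DESeq2 p was under 0.05 in 9 of 18 alternative settings, running from 0.0181 to 0.228. Over these settings its log2 fold change ran from 0.48 to 0.95.

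Tap2, the other subunit of the transporter, had 29.7, 14.8, 23.3 and 13.5 cpm in DJ-1+/+ and 29.0, 20.9, 25.8, 13.4 and 13.6 cpm in DJ-1-/- mice. The ranges of the genotypes coincided. For Tap2 the log2 fold change was 0.02 (standard error 0.30), with a 95% interval from −0.62 to 0.66; the difference between the fold changes of Tap1 and Tap2 was not tested. Tapbp, which encodes tapasin, the bridge between the transporter and empty class I molecules, had 86.7, 93.2, 104 and 75.6 cpm in DJ-1+/+ and 98.1, 95.6, 98.0, 97.1 and 58.5 cpm in DJ-1-/- mice. The first 4 DJ-1-/- replicates were nearly equal, and replicate 5 was the lowest of all 9 libraries. For Tapbp the log2 fold change was −0.01 (standard error 0.14, 95% interval from −0.30 to 0.29), and was 0.11 without DJ-1-/- replicate 5. For neither gene was a genotype difference in mean cpm detected (exact permutation tests, two-sided p = 0.984 for Tap2 and 0.952 for Tapbp).

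The class II genes had a wide spread between mice in both genotypes. H2-Aa, the alpha chain of the class II molecule I-A, had 13.1, 15.9, 26.8 and 9.03 cpm in DJ-1+/+ and 14.01, 18.2, 23.7, 30.0 and 4.87 cpm in DJ-1-/- mice. The lowest and the highest library were both DJ-1-/-. The log2 fold change was 0.16 (standard error 0.41, 95% interval from −0.70 to 1.02). H2-Ab1, the beta chain of I-A, had 10.7, 10.2, 37.2 and 11.3 cpm in DJ-1+/+ and 21.02, 17.3, 24.8, 26.9 and 5.85 cpm in DJ-1-/- mice. DJ-1+/+ replicate 3 was the highest of all libraries, the other DJ-1+/+ mice were below DJ-1-/- replicates 1 to 4, and DJ-1-/- replicate 5 was again the lowest. The log2 fold change of H2-Ab1 was 0.13 (standard error 0.43, 95% interval from −0.77 to 1.04). Over single libraries left out it ran from −0.06 without DJ-1+/+ replicate 2 to 0.82 without DJ-1+/+ replicate 3.

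H2-Eb1, the beta chain of the class II molecule I-E, had 4, 6, 11 and 7 counts in DJ-1+/+ and 14, 18, 19, 15 and 2 counts in DJ-1-/- mice. On the cpm scale these were 4.75, 6.82, 12.8 and 7.90 against 14.01, 16.4, 19.6, 15.5 and 1.95. DJ-1-/- replicates 1 to 4 lay above all DJ-1+/+ mice, and replicate 5 lay below all of them. Mean levels were 8.07 ± 3.41 cpm (SD, n = 4) against 13.5 ± 6.77 cpm (SD, n = 5), at a two-sided p of 0.206 by exact permutation. The log2 fold change of H2-Eb1 was 0.73 (standard error 0.47, 95% interval from −0.26 to 1.72), with an unadjusted p of 0.140 and, by edgeR, an adjusted p of 0.9999. Without DJ-1-/- replicate 5, which is low in Xist, it was 1.0 at an unadjusted edgeR p of 0.00939. In that fit 3.64% of all genes had an unadjusted p under 0.05. Leaving out the overlapping mouse leaves no overlap by construction (exact permutation test, two-sided p = 0.0286), so the outcome rests on that library. The log2 fold change was 0.29 with the presence of Xist as a second term in the model, and 0.46 without DJ-1+/+ replicates 1 and 4. Over all single libraries left out it ran from 0.55 to 1.03.

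Cd74, the invariant chain that guides class II molecules through the cell, had 7, 1, 3 and 0 counts in DJ-1+/+ and 6, 8, 9, 7 and 1 counts in DJ-1-/- mice. In 4 of 9 libraries it was at or under the floor of 3 counts, and the 0 of DJ-1+/+ replicate 4 allows up to 3.39 cpm. Apart from DJ-1-/- replicate 5, the DJ-1-/- mice lay between 6.01 and 9.28 cpm, and of the DJ-1+/+ mice replicate 1, with 8.31 cpm, reached that range. Its log2 fold change was 0.91 (standard error 0.69, 95% interval from −0.55 to 2.37), and over single libraries left out it ran from 0.51 without DJ-1+/+ replicate 4 to 1.92 without DJ-1+/+ replicate 1, at unadjusted edgeR p of 0.438 and 0.0287. No genotype difference in mean cpm was detected for a class II gene when all libraries were used (exact permutation tests, two-sided p = 0.746 for H2-Aa, 0.857 for H2-Ab1 and 0.270 for Cd74). In bulk tissue, the number of class II positive cells and the class II RNA of each cell cannot be told apart.

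**Figure D2:**
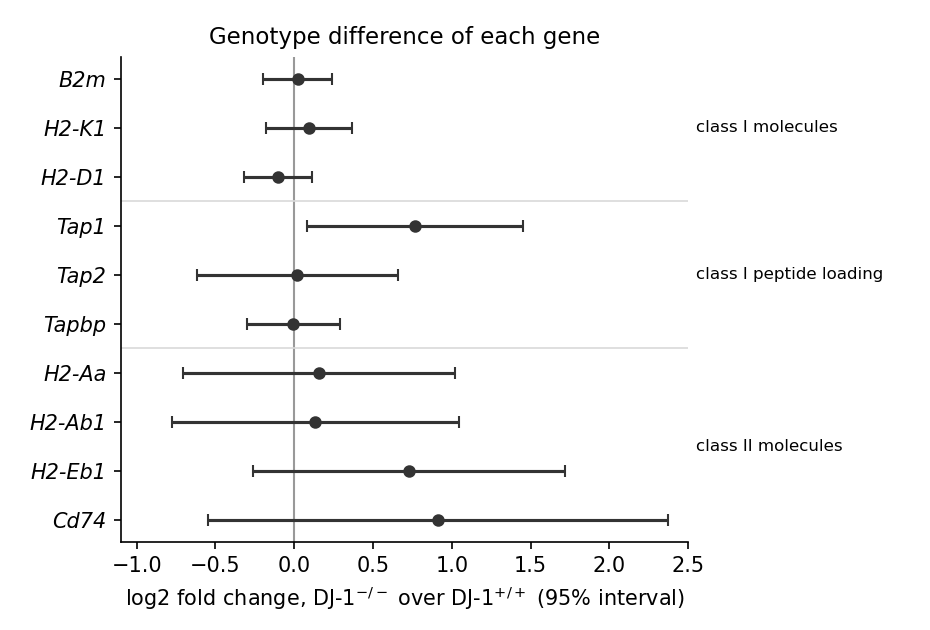
Log2 fold change of each gene in DJ-1-/- over DJ-1+/+ mice (x axis) from edgeR's quasi-likelihood fit; points are estimates and bars 95% intervals over 9 libraries. The interval of Tap1, from 0.08 to 1.45, is the one that leaves out 0, and the intervals of the class II genes are the widest.

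Across the whole table, Park7 was the 1 gene that reached an adjusted p under 0.05 by edgeR, which is 0.00552% of the 18127 genes tested. An unadjusted p under 0.05 was reached by 511 genes, or 2.82%. When every gene that had a count was fitted, 36 genes reached an adjusted p under 0.05 by edgeR. All 10 antigen presentation genes had enough counts to be tested. By edgeR 0 of them reached an adjusted p under 0.05 and 1, Tap1, an unadjusted p under 0.05, and by DESeq2 0 reached either, where 1.3% of all genes reached an unadjusted and 0.00552% an adjusted p under 0.05. DJ-1-/- mice had the higher level for 8 of the 10 and the lower for 2, and their median log2 fold change was 0.11, beside 9386 higher and 8741 lower genes and a median of 0.01 over all genes tested. With the presence of Xist as a second term in the model, 4 of the 8 (B2m, Tap2, H2-Aa and H2-Ab1) were lower in DJ-1-/- mice.

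The spread between mice of one genotype was set against the spread that counting alone would give, as a ratio that is near 1 for counting alone. The ratio was 5.83 for H2-Ab1 and 4.21 for H2-Aa, above 95.7% and 91.6% of the genes whose summed count lay within 20% of theirs. It was 2.85 for B2m, 2.54 for Tapbp, 2.51 for H2-Eb1 and 2.495 for Cd74, above 92.3%, 89.3%, 83.8% and 89.2% of the genes of a similar count. Tap2 had 2.42, H2-K1 1.32 and H2-D1 1.12, above 78.9%, 59.2% and 60.2%. Tap1, with 0.531, varied less within the genotypes than counting alone gives on average.

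By Pearson's r the highest correlations among the 10 genes were between H2-Aa, H2-Ab1, H2-Eb1 and Tapbp, and by rank the highest was between B2m and Tap2. Pearson's r of log2(cpm + 1) was computed for all 45 pairs of the 10 genes over the 9 libraries, with exact permutation p-values, and was positive for 43 pairs with a median of 0.45. After Benjamini-Hochberg adjustment over the 45 pairs, 4 pairs had an adjusted p under 0.05. The same counts over pairs of other genes were not tested, so neither is read as particular to these genes. H2-Aa and H2-Ab1, the paired chains of I-A, had r = 0.89 (exact permutation p = 0.00196, adjusted p = 0.0294) and Spearman's rho = 0.83 (exact permutation p = 0.00827, adjusted p = 0.124). H2-Ab1 and H2-Eb1 had r = 0.87 (exact permutation p = 0.00319, adjusted p = 0.0358) and rho = 0.73 (exact permutation p = 0.0311, adjusted p = 0.276). The remaining 4 class II pairs did not pass, with r = 0.84 for H2-Aa and H2-Eb1 (exact permutation p = 0.0109, adjusted p = 0.0953) and between 0.56 and 0.63 for Cd74 with the others (exact permutation, adjusted p from 0.307 to 0.363). The other pairs that passed joined class II to tapasin. Tapbp and H2-Aa had r = 0.92 (exact permutation p = 0.00104, adjusted p = 0.0234) and rho = 0.77 (exact permutation p = 0.0214, adjusted p = 0.241). Tapbp and H2-Ab1 had r = 0.84 (exact permutation p = 0.000744, adjusted p = 0.0234) and rho = 0.87 (exact permutation p = 0.00451, adjusted p = 0.101). No rank correlation of a pair had an adjusted p under 0.05.

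Without the 2 libraries farthest from the median of the first gene of a pair, r was 0.79 for H2-Aa and H2-Ab1, 0.91 for H2-Ab1 and H2-Eb1, 0.68 for Tapbp and H2-Aa and 0.89 for Tapbp and H2-Ab1. With values centred by genotype r was 0.89, 0.88, 0.92 and 0.86 for the same pairs. DJ-1-/- replicate 5 was among the libraries left out for all 4 pairs and is part of the centred values, and the relation within DJ-1+/+ mice alone was not tested. Between the 3 class I genes and the 4 class II genes r ran from −0.11 to 0.45 for H2-K1, from 0.25 to 0.36 for H2-D1 and from 0.34 to 0.76 for B2m, the last with Cd74, and no pair of these had an adjusted p under 0.05 (exact permutation, adjusted p from 0.216 to 0.941). With values centred by genotype, r of B2m was 0.49 with H2-Aa, 0.33 with H2-Ab1, 0.43 with H2-Eb1 and 0.81 with Cd74. Within DJ-1-/- mice alone these were 0.60, 0.76, 0.85 and 0.82. Without the 2 libraries farthest from the median of B2m, its r was −0.86 with H2-Aa, −0.61 with H2-Ab1, −0.36 with H2-Eb1 and 0.21 with Cd74, so the sign turned for 3 of the 4. With the 2 libraries farthest from the median of H2-D1 left out instead, r of H2-D1 with the same genes was −0.12, −0.23, −0.31 and 0.27, and with those of H2-K1 left out, r of H2-K1 was 0.29, 0.16, 0.58 and 0.39. B2m and Tap2 had r = 0.79 (exact permutation p = 0.0145, adjusted p = 0.0953) and rho = 0.88 (exact permutation p = 0.00308, adjusted p = 0.101), and Tap1 and Tap2 had r = 0.35 (exact permutation p = 0.363, rho = 0.23).

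**Figure D3:**
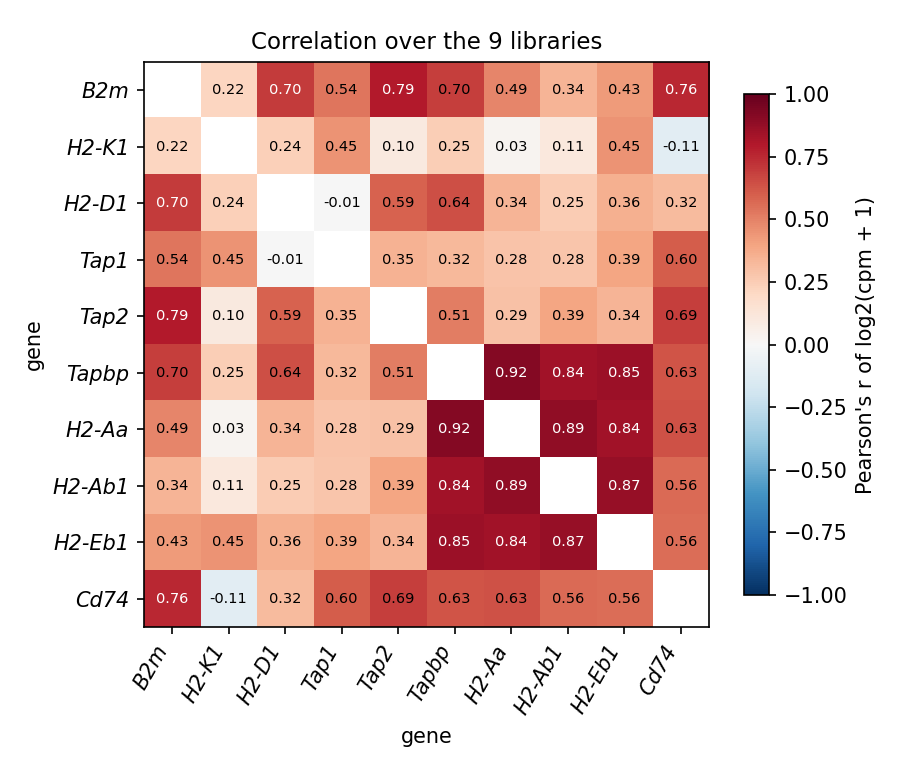
Pearson's r of log2(cpm + 1) between the 10 genes over the 9 libraries, with each gene on both axes and the value printed in its cell. The block of Tapbp, H2-Aa, H2-Ab1 and H2-Eb1 lies between 0.84 and 0.92, and H2-K1 and Cd74 have −0.11.

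Levels of the class II genes and Tapbp are set beside Xist here. H2-Aa lay between 4.87 and 13.1 cpm in these 3 libraries and between 14.01 and 30.0 cpm in the other 6 libraries. For Tapbp the ranges were 58.5 to 86.7 and 93.2 to 104 cpm. These were the 2 of the 10 genes whose values did not overlap between the libraries low in Xist and the others, where 787 genes, 4.34% of those tested, did not overlap. H2-Ab1, with 5.85 to 11.3 and 10.2 to 37.2 cpm, and H2-Eb1, with 1.95 to 7.90 and 6.82 to 19.6 cpm, overlapped between these libraries. Cd74 overlapped as well, with 0 to 8.31 and 1.14 to 9.28 cpm, and DJ-1+/+ replicate 1, low in Xist, was second highest of all 9 libraries. Summed over the 4 class II genes, the level was 36.8, 34.1, 80.3 and 28.2 cpm in DJ-1+/+ and 55.1, 59.2, 77.4, 79.6 and 13.6 cpm in DJ-1-/- mice. With Xist as a term in the model, the log2 fold changes by genotype were −0.23 for H2-Aa, −0.24 for H2-Ab1, 0.29 for H2-Eb1 and 0.68 for Cd74.

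Markers of cells that can carry class II were summed for each library. Border-associated macrophage markers (8 of 9 genes tested, led by Mrc1) summed to 42.8, 97.7, 76.8 and 42.9 cpm in DJ-1+/+ and 60.1, 84.7, 77.4, 53.7 and 40.9 cpm in DJ-1-/- mice. The sums were lowest in the 3 libraries low in Xist, but Mrc1 itself was not, with 4.75, 20.5, 13.96 and 11.3 cpm in DJ-1+/+ and 14.01, 19.1, 13.4, 8.27 and 14.6 cpm in DJ-1-/- mice. Meningeal fibroblast markers (7 of 8 genes tested, led by Dcn, with Igf2 at 0 in every library) summed to 311, 367, 400.2 and 236 cpm in DJ-1+/+ and 345, 378, 370.3, 257 and 256 cpm in DJ-1-/- mice. Microglial markers (14 of 14 genes tested, led by Cx3cr1) were steadier, with sums of 792, 801, 833 and 823 against 855, 906, 871, 749 and 813 cpm, and DJ-1-/- replicate 5, the lowest library in class II, was within their range. The part of these cells in the class II values was not tested.

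Among the B cell markers, Ighm, the heavy chain of immunoglobulin M and the most abundant of the list, had 28.5, 20.5, 61.7 and 13.5 cpm in DJ-1+/+ and 63.1, 49.2, 32.0, 51.7 and 19.5 cpm in DJ-1-/- mice. It was lowest in the 4 libraries with the lowest class II sums and high in DJ-1+/+ replicate 3. Pax5, of the same list, did not follow that order, with 43.9, 47.7, 4.65 and 1.13 cpm in DJ-1+/+ and 30.03, 23.7, 53.6, 28.9 and 20.5 cpm in DJ-1-/- mice. Igkc, an immunoglobulin light chain and the third gene tested, had 1.19, 2.27, 6.98 and 1.13 cpm in DJ-1+/+ and 2.002, 9.11, 2.06, 33.1 and 0.974 cpm in DJ-1-/- mice, highest in DJ-1-/- replicate 4 and at or under the floor of 3 counts in 6 of 9 libraries. The defining B cell marker Cd79a was at 0 in every library and Cd79b and Ms4a1 had at most 3 counts in any. The B cell list (3 of 6 genes tested) summed to 73.6, 71.6, 73.3 and 15.8 cpm in DJ-1+/+ and 95.1, 82.0, 88.7, 114 and 40.9 cpm in DJ-1-/- mice. This sum rests on Ighm, Pax5 and Igkc, with means of 37.7, 28.2 and 6.53 cpm. It is not read as a measure of B cells, and which cells gave these reads was not tested. Markers of dendritic cells and monocytes (3 of 10 genes tested, led by Flt3, with Xcr1 at 0 in every library) summed to 143, 88.6, 87.3 and 82.4 cpm in DJ-1+/+ and 105, 98.3, 89.7, 74.4 and 78.0 cpm in DJ-1-/- mice. Flt3 had a mean of 44.2 cpm and Zbtb46 of 43.8 cpm, and the genes of that list not tested had at most 3 counts in any library. The sum therefore rests on Flt3 and Zbtb46, and is not read as a measure of dendritic cells. T and NK cell markers (2 of 8 genes tested, led by Trac, with Cd3g and Ncr1 at 0) summed to between 21.4 and 34.1 cpm.

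Markers of the tissue and its neighbours differed in level between mice, and their part in the fold changes of the 10 genes was not tested. Dopaminergic neuron markers (10 of 10 genes tested, led by Aldh1a1) were present in all libraries, at 721, 941, 588 and 475 cpm in DJ-1+/+ and 809, 879, 830.4, 989 and 728 cpm in DJ-1-/- mice. By genotype, 9 of the 10 were higher in DJ-1-/- (median on the log2 scale 0.34), and 4 had an unadjusted edgeR p under 0.05. Choroid plexus markers (10 of 10 tested, led by Ttr) summed to 418, 208, 170 and 958 cpm in DJ-1+/+ and 170.2, 281, 268, 182 and 245 cpm in DJ-1-/- mice. By genotype, 10 of 10 were lower in DJ-1-/- (median −1.39), and 6 had an unadjusted edgeR p under 0.05. Cerebellar neuron markers (8 of 8 tested, led by Zic1) reached 1106 cpm in DJ-1+/+ replicate 1 and lay between 321 and 543 cpm elsewhere. By genotype, 8 of 8 were lower in DJ-1-/- (median −1.56), and 4 had an unadjusted edgeR p under 0.05, which 2.82% of all genes tested had. The exact permutation p of these 4 ran from 0.0952 to 0.492. These 4, Gabra6, Pcp2, Cbln3 and Fat2, had 102, 79, 127 and 22 counts in DJ-1+/+ replicate 1. In any other library they had at most 2, 2, 10 and 7 counts, so the size of their difference rests mainly on that replicate. Zic1, Calb1 and Cbln1, with means of 171, 144 and 103 cpm, were present in every library and were the largest part of the other sums. Sums in DJ-1+/+ replicates 2 to 4 were 466, 321 and 543 cpm, beside 344 to 539 cpm in DJ-1-/- mice. In these 3 lists 0 genes reached an adjusted p under 0.05 by edgeR, and the lowest exact permutation p was 0.0635. DJ-1+/+ replicates 1 and 4, the highest libraries in choroid plexus markers, were among the 3 libraries low in Xist. Leaving both out gave log2 fold changes of −0.24 for H2-Aa, −0.31 for H2-Ab1, 0.46 for H2-Eb1 and 1.37 for Cd74, and no unadjusted edgeR p under 0.05 among the 10 genes. Endothelial markers (led by Bsg) lay between 739 and 900.5 cpm, blood markers (led by Hbb-bs) between 382 and 664, oligodendrocyte markers (led by Mbp) between 1720 and 2221 and astrocyte markers (led by Slc1a2) between 1021 and 1143 cpm.

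Of 64 other genes of the pathways, 49 passed the filter on low counts. By edgeR and by DESeq2 alike, 0 of the 49 reached an adjusted and 0 an unadjusted p under 0.05, where the unadjusted share over all genes was 2.82% by edgeR and 1.3% by DESeq2. Higher levels in DJ-1-/- mice were seen for 26 and lower levels for 23, and the median log2 fold change was 0.01. Among the 12 genes of class I peptide supply and folding, 11 were tested, with 6 higher and 5 lower. Canx, the chaperone calnexin, was the most abundant with a mean of 233 cpm and a log2 fold change of 0.00 (standard error 0.07). Psmb9, a subunit of the immunoproteasome whose gene lies head to head with Tap1, had the highest log2 fold change of this list, 0.57 (standard error 0.34). It had 6, 5, 4 and 6 counts in DJ-1+/+ and 7, 10, 10, 8 and 11 counts in DJ-1-/- mice. In cpm, 4 of 5 DJ-1-/- mice were above the highest DJ-1+/+ mouse (exact permutation test, two-sided p = 0.0317). Of the 49 pathway genes, 1 was under 0.05 in that test, against 3.67% of all genes tested. Psme1, a subunit of the proteasome activator PA28, had the lowest value of the list at −0.20 (standard error 0.11).

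Of 16 other class I and class I-like molecules, 13 were tested, with 7 higher and 6 lower. H2-T22 was the most abundant at 44.3 cpm, and log2 fold changes ran from −0.36 for H2-Q2 (standard error 0.50) to 0.64 for H2-Q7 (standard error 0.59). Of 16 genes of class II regulation and loading, 12 were tested, with 7 higher and 5 lower. Ctss, the protease that trims the invariant chain, was the most abundant at 134 cpm. H2-DMa, a chain of the molecule that exchanges peptides on class II, had the highest log2 fold change of this list at 0.36 (standard error 0.22), with 3 of 5 DJ-1-/- mice above the highest DJ-1+/+ mouse, and Ifi30 the lowest at −0.06 (standard error 0.20). Ciita, the master regulator of class II genes, had at most 3 counts in any library and was not tested.

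Interferon gamma itself (Ifng) had 0 counts in all 9 libraries, which allows up to 3.56 cpm in the shallowest. Its signalling genes (9 of 10 tested, 3 higher and 6 lower) ranged in log2 fold change from −0.81 for Socs1, a feedback inhibitor (standard error 0.49), to 0.33 for Ifngr2, a receptor chain (standard error 0.16), and Jak1 was the most abundant at 210 cpm. Of the 10 co-stimulatory genes and partner receptors, 4 were tested, with 3 higher and 1 lower. Their values ran from −0.05 for Cd274 (standard error 0.32), also the most abundant at 22.1 cpm, to 0.61 for Cd4 (standard error 1.07), which rests on 10 counts over all libraries. The T cell coreceptor genes Cd8a and Cd8b1 had 1 and 2 counts in all.

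RefSeq promoters of GRCm38.p6 were matched for 7 of the 10 genes. The 250 bases before the start of transcription were searched on both strands for short motifs. These were GATTGG, the Y box bound by NF-Y, and TGACG, the core of cAMP response elements. The others were GGGATTCCC, an NF-kB motif, and GAAANNGAA, the core of interferon response elements. Only exact matches to these letters were counted, so variants of a motif were missed. Of 32851 promoters, 14.6% held the Y box, 17.8% TGACG, 0.301% the NF-kB motif and 7.13% the interferon core. The stretches below are shown to set H2-Aa, the class II gene with the most counts of those matched, beside B2m and the class I heavy chain H2-K1, with matches in capitals, and lie at chr17:34287824-34288023 (minus strand), chr2:122147487-122147685 (plus strand) and chr17:34000348-34000547 (minus strand), upstream of the annotated exons. In H2-Aa, a pair of TGACG matches on opposite strands overlap.
H2-Aa: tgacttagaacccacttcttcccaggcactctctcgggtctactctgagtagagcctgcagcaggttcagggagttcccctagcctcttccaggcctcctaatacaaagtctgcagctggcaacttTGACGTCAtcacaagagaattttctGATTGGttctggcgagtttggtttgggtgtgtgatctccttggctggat
B2m: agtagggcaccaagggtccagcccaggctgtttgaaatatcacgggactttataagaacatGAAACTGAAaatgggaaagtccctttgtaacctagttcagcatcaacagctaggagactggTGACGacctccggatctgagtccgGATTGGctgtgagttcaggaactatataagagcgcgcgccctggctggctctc
H2-K1: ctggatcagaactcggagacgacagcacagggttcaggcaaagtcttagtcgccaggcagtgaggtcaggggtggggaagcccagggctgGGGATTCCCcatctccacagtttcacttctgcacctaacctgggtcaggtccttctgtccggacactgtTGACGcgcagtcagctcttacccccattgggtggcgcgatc

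H2-Aa held 1 Y box, starting 49 bases before the transcription start, and H2-Eb1 held 2, at 60 and 35 bases. B2m held 1 Y box at 54 bases, 1 TGACG and 1 interferon core. H2-K1 and H2-D1 each held TGACG and the NF-kB motif, H2-D1 also held 1 Y box at 53 bases, and Tap1 held 1 Y box and 1 TGACG. Tapbp held none of the 4 motifs. For Tapbp, Tap1 and H2-D1 all of the last 200 searched bases lie in annotated exons, and for H2-Eb1 54 of them do, so these are not shown and may not be promoter sequence. A match is a description of the sequence and not evidence of binding. The lack of a match, as for the interferon core in H2-K1, does not show that a gene lacks such an element.

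Among 12732 genes outside the 10 with a mean of at least 10 cpm, those most like B2m across the 9 libraries were Tmem255a (r = 0.97), 2900052L18Rik (r = 0.96) and Rassf5 (r = 0.96). Those most like Cd74 were Mtg2 (r = 0.97), Arhgdig (r = 0.95) and Sowahb (r = 0.94). They were taken as the highest of many values over 9 libraries, and 173 and 167 genes had r above 0.8 with B2m and with Cd74.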

How the data were processed

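The authors deposited UMI counts per gene as whole numbers without normalization, listing genes with a count. The submitters' processing notes name fastp 0.20.0, STAR 2.7.3a, Subread, featureCounts 2.0.0, UMI-tools 1.0.0 and GRCm38. The annotation release and the use of strand are not given in the sources used here. A gene not listed in a library was given 0, and symbols came from GENCODE M21 (26576 of 26602 identifiers matched). The 18127 genes whose counts summed to 10 or more were fitted together by edgeR 4.0.16 (quasi-likelihood test, TMM, genotype alone) in R 4.3.3, with adjustment over all genes tested, and by DESeq2 1.42.0. Standard errors are the fold change divided by the square root of F. Single values were compared by exact two-sided permutation tests over 126 arrangements, the smaller tail doubled. The code was tested on simulated data. Each library is taken as 1 mouse. Between pairs of libraries of one genotype the chi-square per degree of freedom was 1.07 to 2.27 over 16 pairs, and no library was treated as a copy. The alternatives were other normalizations and filters, thinned counts, a block for the replicate number, Xist as a covariate, and libraries left out. The members, gene lists and marker lists were chosen with earlier results of these data known. The named genes are the 10 members, Park7, Xist, Ddx3y, the extremes and the most abundant gene of each pathway list, any pathway gene with an unadjusted p under 0.05, the most abundant marker and markers at 0 of each cell list, and the 3 genes most like B2m and Cd74. Mbp, Ciita, Cd8a, Cd8b1, Cd79b, Ms4a1, Pax5, Igkc and the overlapping neighbours were named after their values were seen. The same holds for Zbtb46, Gabra6, Pcp2, Cbln3, Fat2, Calb1 and Cbln1. A marker of one cell list is not reported here and was left out of its sums.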

Additional observations from a re-analysis of the deposited data

Results flagged for a closer look

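In the 20 groups formed by 10 genes and 2 genotypes, 2 libraries lay far from the others of their group, where chance flags about 1 in 20 groups, or 1 here. Tapbp was 58.5 cpm in DJ-1-/- replicate 5, against 95.6 to 98.1 cpm in the other DJ-1-/- mice. H2-Ab1 was 37.2 cpm in DJ-1+/+ replicate 3, against 10.2 to 11.3 cpm in the other DJ-1+/+ mice. Both libraries were also the extremes of their genotype for H2-Aa, and the reason was not tested.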

How the results depend on the processing

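Over 18 alternatives for each gene, H2-K1, H2-D1, Tap1, H2-Eb1 and Cd74 kept their direction in all 18. No gene of the 10 had an adjusted p under 0.05 in any alternative run, where 153 of 180 estimates kept their sign and adjusted p ran from 0.860 to 1 with edgeR's or DESeq2's test. The count with an unadjusted p under 0.05, 1 in the report, was 0 with DESeq2, with every gene that had a count, with Xist as a covariate, with thinned counts and with DJ-1+/+ replicates 1 and 4 left out, and 0 to 2 with 1 library left out. The log2 fold change of Tap1, 0.77 in the report, was 0.77, 0.78, 0.65, 0.57 and 0.48 in the first 5 of these. With the replicate number as a block the count was 2 (Tap1 and H2-Eb1, with 8 genes of the whole table at an adjusted p under 0.05). DJ-1-/- replicate 5 has no DJ-1+/+ library of its number, and H2-Eb1 was 1.03 in this fit, beside 1.0 without that library. The deviations of same-numbered mice from their genotype means had r = 0.29, 0.06, −0.12 and −0.20 over genes. Mice of unlike numbers were not compared, so these values do not settle whether the numbers pair the mice. The other pathway genes, 0 in the report, had 2 with every gene that had a count, 2 with the Xist covariate, 1 with thinned counts, 1 with DJ-1+/+ replicates 1 and 4 left out, and 0 to 1 with 1 library left out. Over all genes of the same fits the shares were 3.01%, 2.53%, 2.81%, 2.66% and 1.90% to 4.10%, and 1.30% with DESeq2 and 3.14% with the block. The count of exact permutation tests under 0.05 was 1 to 2 with 1 library left out. Signs turned with the Xist covariate for B2m (−0.03), Tap2 (−0.04), H2-Aa (−0.23) and H2-Ab1 (−0.24), with thinned counts for B2m (−0.02) and Tap2 (−0.10), with replicates 1 and 4 left out for B2m (−0.001), H2-Aa (−0.24) and H2-Ab1 (−0.31), and for Tapbp with the block (0.11) and with every gene that had a count (0.004). With 1 library left out, log2 fold changes ran from −0.06 to 0.09 for B2m, 0.02 to 0.16 for H2-K1, −0.16 to −0.05 for H2-D1, 0.59 to 0.95 for Tap1, −0.14 to 0.26 for Tap2, −0.08 to 0.11 for Tapbp, −0.10 to 0.51 for H2-Aa, −0.06 to 0.82 for H2-Ab1, 0.55 to 1.03 for H2-Eb1 and 0.51 to 1.92 for Cd74. Fewer libraries or counts enter the left-out and thinned fits; beyond that the cause was not tested. Low counts limit Tap1, H2-Eb1 and Cd74, for which wide intervals allow no statement on small differences. Depth and genotype cannot be told apart, and sex and genotype only in part.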
